A study of Danio rerio with 8 samples.

Results

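Heat shock proteins and chaperonins are the proteins that fold other proteins. Their genes were taken as those with an array probe set whose only gene symbol begins with hsp, dnaj, cct and a digit, tcp1, fkbp, ppi and a letter, pdia or calr, or is hyou1 or canx. The rule found 104 probe sets of 90 genes, of 8793 genes named on the array, and each gene was represented by its probe set with the highest mean log2 signal. By where their proteins work, 25 genes belong to the endoplasmic reticulum (ER), 8 to the cytosolic chaperonin, 10 to mitochondria and 44 to the rest of the cytosol and the nucleus. The other 3 genes match by name only: hspbp1, a co-chaperone of Hsp70, ppip5k1a, an inositol phosphate kinase, and tcp11l2, which is no chaperonin subunit. Affymetrix arrays measured expression in zebrafish embryos, 35 hours after fertilization and of AB background, that carried a cd41-GFP transgene, in which the itga2b (cd41) promoter drives green fluorescent protein. Living cells were sorted into a GFP-positive fraction and a GFP-negative fraction, with 4 arrays of each, and both fractions came from embryos with the same transgene. Replicates 1 to 4 pair a GFP-positive with a GFP-negative array, and the series title names haematopoietic stem cells as its subject. Separate clutches are not mentioned in the labels, so the p-values measure only how far these samples spread, and that spread may be technical.

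Chaperones hold or fold unfinished protein chains, some of them at the cost of ATP. In the cytosol, J proteins deliver chains to Hsp70, Hsp90 finishes kinases and receptors, and the ring-shaped chaperonin TRiC, built from Tcp1 and the Cct subunits, folds actin and tubulin. Proteins bound for secretion or for membranes fold in the ER with BiP (Hspa5), Grp94 (Hsp90b1), the lectins calnexin and calreticulin and the protein disulfide isomerases, and the unfolded protein response raises these genes when the ER is overloaded. Prolyl isomerases of the Fkbp and cyclophilin (Ppi) families turn proline bonds, and several of those in the ER serve collagen.

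The deposited signals are on a linear scale with a common trimmed mean of 1500.26 to 1500.47 on all 8 arrays, and median signals were 275 to 421 on GFP-positive and 371 to 387 on GFP-negative arrays. The GFP-positive array of replicate 1 stood apart: over the 9801 tested probe sets its median correlation with the other GFP-positive arrays was 0.72, and that of the other 3 was 0.87 to 0.90. For the GAPDH control the 3′ signal over the 5′ signal, which grows as RNA shortens, was 86.6, 31.3, 99.95 and 45.6 on GFP-positive arrays and 75.4, 22.6, 18.2 and 21.6 on GFP-negative arrays, so it was high on both arrays of replicate 1 and on the GFP-positive array of replicate 3, and higher in GFP-positive cells in 4 of 4 pairs. The GAPDH 3′ signal over the middle signal was 11.45, 3.35, 4.03 and 4.54 on GFP-positive arrays and 7.45, 3.76, 2.03 and 3.19 on GFP-negative arrays. By this ratio both arrays of replicate 1 were again high, but the GFP-positive array of replicate 3 was not. It was higher in GFP-positive cells in 3 of 4 pairs. Of the GFP-positive arrays, that of replicate 3 lay nearest to the GFP-negative arrays, with a median correlation of 0.80. The transcript behind the gate, itga2b, was dim, under the 40th percentile, on each of the 8 arrays and does not check the labels. Myeloid markers were higher in GFP-positive cells for 12 of 12 tested genes, and muscle and neural markers were lower for 18 of 19 and 20 of 20. Of these, 2 myeloid, 4 muscle and 3 neural genes were dim on all arrays of the fraction where they were lower and passed the filter only through the other, which fixed their direction. The number of arrays limits the precision. All values below are array signals or log2 differences, GFP-positive minus GFP-negative, from limma with the replicate as a block, and signals are given in the order of replicates 1 to 4.

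Of the 90 genes, 81 passed the filter on dim probe sets (at least 4 of 8 arrays with a signal above their 40th percentile), and none of the 81 was below that percentile on all arrays of a fraction. In GFP-positive cells 12 of these were higher and 9 lower at an adjusted p under 0.05, beside 13% of all tested probe sets called higher and 18.4% called lower. Together these are 25.9% of the tested genes, beside 31.4% of all tested probe sets. All 12 were higher and all 9 were lower in 4 of 4 pairs. The share over the whole set was thus somewhat under that of the array. Of the 12 risen genes 11 belong to the ER, where 11 of 25 genes rose and 3 fell. The ER median log2 difference was 0.98, while the median of all tested probe sets was -0.18. The ER medians of pairs 1 to 4 were 0.14, 1.33, 1.06 and 1.33, so that of pair 1 was small. In the rest of the cytosol and nucleus 1 of 37 rose and 6 fell, with a median of -0.29. The chaperonin had a median of -0.74 and the mitochondrial genes one of 0.24, and in both 0 genes passed the test, also at an unadjusted p under 0.05. Without replicate 1 the ER count was 16 higher and 3 lower, beside 15.0% and 20.7% of all probe sets, and the chaperonin median was -0.21. The GFP-positive and GFP-negative signals did not overlap for 9 genes that were higher and 10 that were lower, beside 14.5% and 19.9% of all tested probe sets. Without replicate 2, 3 and 4 in turn, 7, 9 and 7 genes were called higher and 2, 9 and 2 lower, beside 6.87%, 9.11% and 6.59% of all probe sets called higher and 7.40%, 14.8% and 6.72% called lower. Of these, 7, 9 and 7 of the higher and 1, 3 and 0 of the lower genes belong to the ER. No test of the difference between compartments was made. The shares of 13% called higher and 18.4% called lower over all tested probe sets also stand beside the counts of each class and list below.

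**Figure D1:**
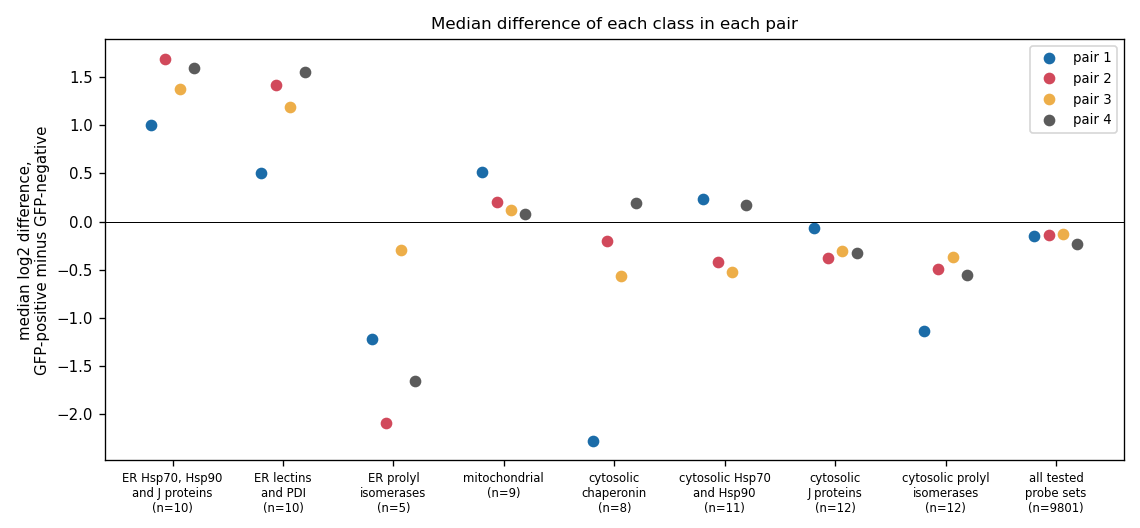
Median log2 difference, GFP-positive minus GFP-negative (vertical axis), over the tested genes of each class, with a point for each of the 4 pairs and all tested probe sets at the right. The 2 ER classes at the left are above 0 in all pairs, the ER prolyl isomerases are below 0 in all pairs, and the chaperonin point of pair 1 lies at -2.28, apart from its other 3 points at -0.56 to 0.20.

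Of the ER members of the Hsp70, Hsp90 and J protein families 6 of 10 genes rose and 0 fell in GFP-positive cells, with a median of 1.48 (pair medians 1.00, 1.69, 1.37 and 1.59). BiP, encoded by hspa5, is the Hsp70 of the ER. Its signals were 3923, 21708, 14103 and 24203 in GFP-positive cells, against 2038, 6103, 5669.9 and 5700.1 in GFP-negative cells. In each pair the GFP-positive array was higher, but replicate 1 was low in both fractions, so that the ranges overlapped. The log2 difference was 1.54 (adjusted p = 0.011, SE 0.30), or 2.92-fold. The Grp170 gene hyou1, whose product exchanges the nucleotide of BiP, had signals of 17630.4, 20078, 14120.5 and 18933 in GFP-positive cells, against 3950.5, 4837, 4419.6 and 5462 in GFP-negative cells. These did not overlap, and the spread within either fraction was small beside the difference of 1.92 (adjusted p = 0.004, SE 0.26). The Grp94 gene hsp90b1, an ER Hsp90 that folds integrins and Toll-like receptors, had signals of 1242, 8976, 2161 and 8613 in GFP-positive cells, against 1157, 2347, 799.5 and 1211 in GFP-negative cells. Replicates 2 and 4 were high and replicate 1 hardly differed between the fractions, which left a difference of 1.58 (adjusted p = 0.037, SE 0.45).

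Of the J protein genes of the ER, dnajc3a, dnajc3b and dnajb11 rose. Signals of dnajc3a, one of a pair of zebrafish genes for p58IPK, a BiP partner that in mammals also restrains the kinase Perk, were 2434, 3482, 4362 and 3805 in GFP-positive cells, against 458, 465, 446 and 394 in GFP-negative cells. Every GFP-positive array was brighter than every GFP-negative array, and the difference was 2.97 (adjusted p = 0.0014, SE 0.28). Its paralogue dnajc3b had signals of 1346, 3126, 1777 and 3989 in GFP-positive cells, against 353, 592, 482 and 595 in GFP-negative cells. These did not overlap either and differed by 2.24 (adjusted p = 0.0034, SE 0.28). The ERdj3 gene dnajb11, whose product binds unfolded chains beside BiP, had signals of 5043, 10189, 9036 and 10959.5 in GFP-positive cells, against 2412, 3469, 2861 and 4180.1 in GFP-negative cells, with a difference of 1.42 (adjusted p = 0.0091, SE 0.26). The other J protein genes did not pass the test. Among them were dnajb12a of the ER membrane (0.54, adjusted p = 0.21, SE 0.31), the disulfide reductase gene dnajc10 (0.07, adjusted p = 0.86, SE 0.29) and dnajc18 (-0.68, adjusted p = 0.19, SE 0.37). The ERdj1 gene dnajc1 had a difference of 0.51 (adjusted p = 0.45, SE 0.48), which was 1.13 without replicate 1 (adjusted p = 0.015). The calls of hspa5 and hsp90b1 were lost with no replicate block and without replicate 2 or 4, hsp90b1 also without replicate 3, and dnajb11 without replicate 2 or 4. Those of hyou1, dnajc3a and dnajc3b held in all alternatives.

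**Figure D2:**
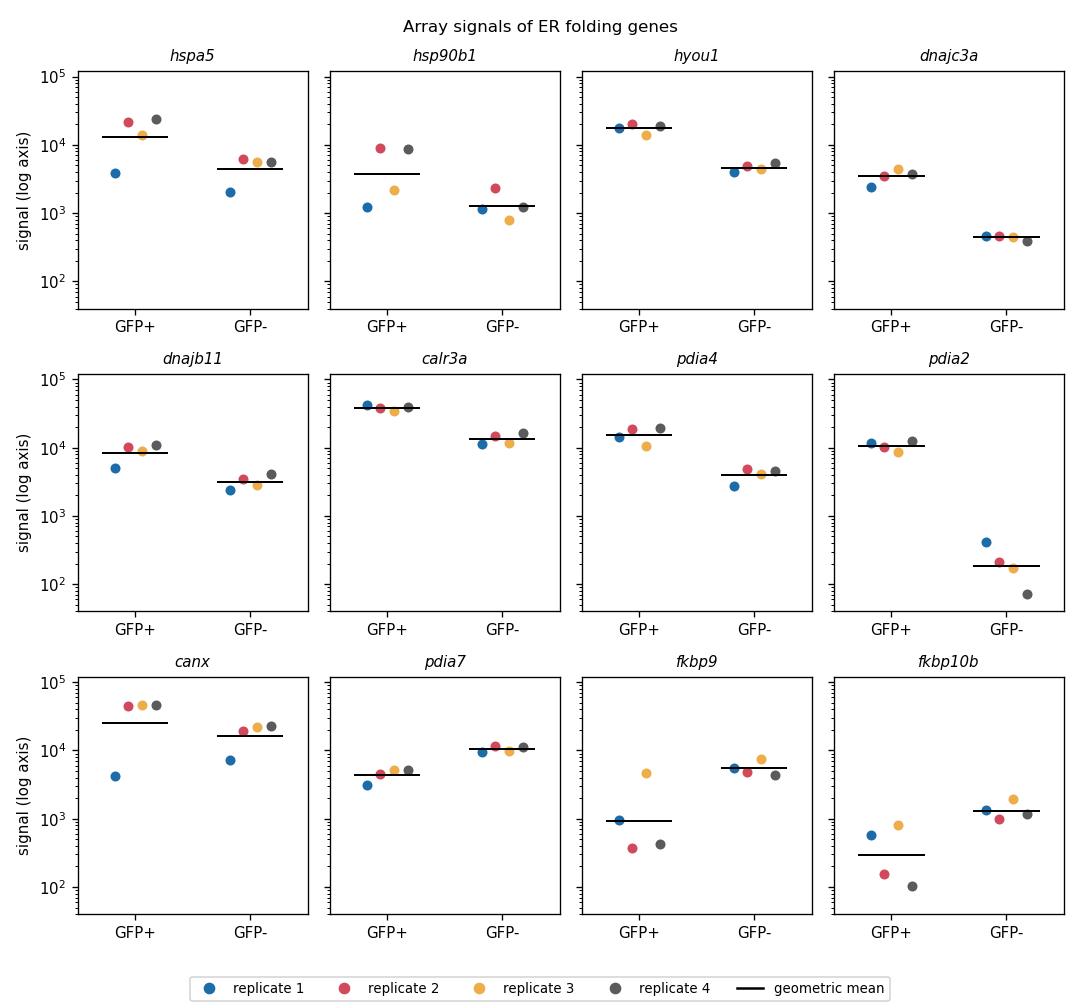
Array signals on a log axis of 12 ER folding genes, with GFP-positive arrays (GFP+) left of GFP-negative arrays (GFP-), a coloured point for each replicate and a bar at the geometric mean. Signals of hyou1, dnajc3a, dnajb11, calr3a, pdia4 and pdia2 are higher in GFP-positive cells without overlap, those of pdia7 and fkbp10b are lower without overlap, and canx is low in replicate 1 of both fractions.

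Calnexin and calreticulin hold new glycoproteins by their sugar chains. The calreticulin genes rose in 3 of 3 cases. Signals of calr3a were 42727, 38156, 34604 and 38980.3 in GFP-positive cells, against 11232, 14903, 11593 and 16299 in GFP-negative cells. They did not overlap, and the difference of 1.53 (adjusted p = 0.0077, SE 0.26) corresponds to 2.89-fold. Its relative calr3b had lower signals in replicate 1 of both fractions, 270.2, 2962, 2520.4 and 3583 in GFP-positive cells, against 28.4, 536, 385 and 595 in GFP-negative cells, and a difference of 2.75 (adjusted p = 0.0018, SE 0.28). The call of calr3b was lost with no replicate block. The calr probe set used here had signals of 8232, 11457, 4591 and 8422 in GFP-positive cells, against 4479.6, 4135, 2328 and 3347 in GFP-negative cells, and a difference of 1.16 (adjusted p = 0.017, SE 0.26), which did not pass without replicate 2, 3 or 4. Its dimmer probe set differed by 0.59 (adjusted p = 0.18). The membrane-bound lectin gene canx had signals of 4179, 44503, 45933 and 45799.7 in GFP-positive cells, against 7327, 19305, 22165 and 22877 in GFP-negative cells. It was higher in GFP-positive cells in 3 of 4 pairs, and the reverse in replicate 1 left a difference of 0.61 (adjusted p = 0.27, SE 0.40), or 1.09 without that replicate (adjusted p = 0.0078).

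Protein disulfide isomerases form and shuffle disulfide bonds in the ER, and their 6 genes moved in both directions, with 2 risen and 1 fallen. The largest log2 difference of all 81 tested genes was that of pdia2, whose mammalian product is an isomerase of the exocrine pancreas. Its signals were 11727, 10059, 8499.7 and 12418 in GFP-positive cells, against 421, 208, 175 and 72.4 in GFP-negative cells. It was bright on all GFP-positive arrays, and on GFP-negative arrays it was above the 40th percentile in replicates 1 and 2 only, so that it was at least 41.8-fold higher in GFP-positive cells (adjusted p = 0.00063), a bound from means of log2 signals that leaves out their spread. The ERp72 gene pdia4, of an isomerase found with BiP, had signals of 14287, 19076, 10437 and 19410.1 in GFP-positive cells, against 2717, 4822, 4178 and 4617 in GFP-negative cells. These did not overlap and differed by 1.94 (adjusted p = 0.0051, SE 0.29). Both calls held in all alternatives. The family member pdia7 was lower in GFP-positive cells. Its signals were 3103, 4493, 5193 and 5147 in GFP-positive cells, against 9421, 11712, 9799.7 and 11399 in GFP-negative cells, without overlap, with a difference of -1.26 (adjusted p = 0.014, SE 0.26). The call did not hold when replicate 2 or 4 was left out, and a dimmer pdia7 probe set differed by -0.45 (adjusted p = 0.33).

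The other isomerase genes did not pass the test. The ERp57 gene pdia3, the partner of calnexin and calreticulin, had signals of 173, 8240.5, 6013 and 7069 in GFP-positive cells, against 769.6, 1491, 1713 and 2055 in GFP-negative cells. In replicates 2 to 4 it was higher in GFP-positive cells and in replicate 1 lower, and its difference of 0.98 (adjusted p = 0.34, SE 0.74) became 2.02 without replicate 1 (adjusted p = 0.0061). The P5 gene pdia6 had a difference of 1.01 (adjusted p = 0.061, SE 0.34) with all 4 pairs on the same side, and of 1.3 without replicate 1 (adjusted p = 0.018). It was also called after quantile normalization and cyclic loess, but in none of the other alternatives, where the adjusted p reached 0.3. Of pdia5 the 2 tested probe sets pointed opposite ways, at -0.45 and 0.39, and neither passed (adjusted p = 0.37 and 0.46).

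**Figure D3:**
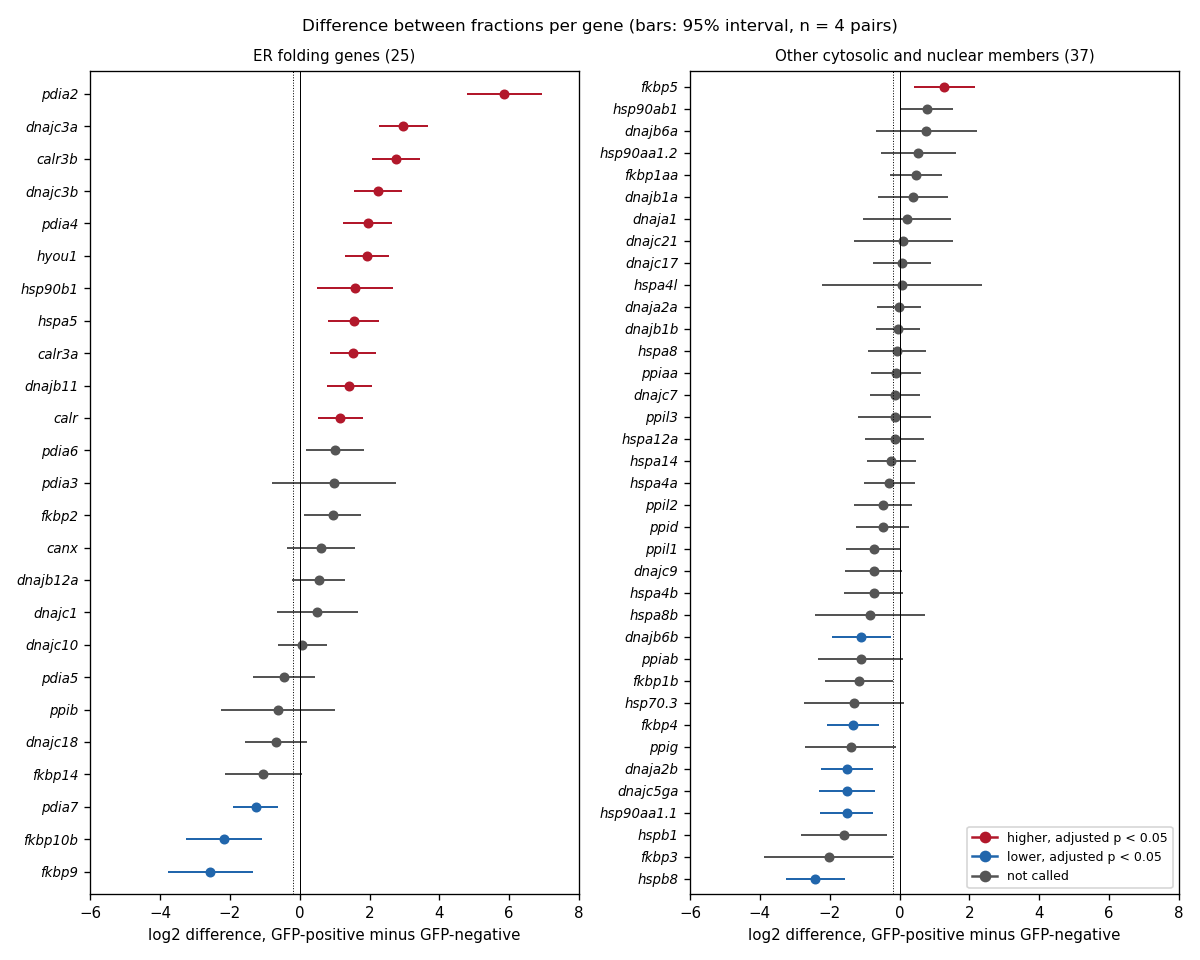
Log2 difference, GFP-positive minus GFP-negative (horizontal axis), for the 25 ER genes (left) and the 37 tested cytosolic and nuclear genes outside the chaperonin (right), with 95% intervals from 4 pairs. The solid line marks 0 and the dotted line the median of all tested probe sets, -0.18. ER genes reach from -2.56 (fkbp9) to 5.85 (pdia2), and in the right panel fkbp5 alone is called higher.

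Of the prolyl isomerases of the ER 2 of 5 fell and 0 rose, with a median of -1.04. At an unadjusted p under 0.05 there were 3, these 2 and fkbp2, which was higher in GFP-positive cells. Signals of fkbp9 were 967, 378, 4658 and 432 in GFP-positive cells, against 5571, 4843, 7574 and 4372 in GFP-negative cells. In 3 replicates they were far lower in GFP-positive cells, while the GFP-positive array of replicate 3 was nearer its partner and within the GFP-negative range, and the difference was -2.56 (adjusted p = 0.011, SE 0.50). The FKBP65 gene fkbp10b, whose product is needed in mammals for collagen folding and cross-linking, had signals of 571, 155, 799 and 104 in GFP-positive cells, against 1331, 983, 1971 and 1169.6 in GFP-negative cells. It was above the 40th percentile on 2 of 4 GFP-positive arrays, and by the means of log2 signals was at least 3.9-fold lower there (adjusted p = 0.013). The procollagen isomerase gene fkbp14 differed by -1.04 (adjusted p = 0.12, SE 0.45) and was lower in 4 of 4 pairs. The collagen chaperone gene serpinh1b (Hsp47), which is not in the family by name, fell too. Its signals were 5536, 1967, 9255 and 3507 in GFP-positive cells, against 10338, 20384, 16278 and 22004 in GFP-negative cells, a difference of -1.93 (adjusted p = 0.025, SE 0.49). The call of serpinh1b was lost without replicate 2 or 4. In the list of notochord, cartilage and matrix markers 6 of 8 tested genes fell and 1 rose, and their summed signal was 3138 to 8031 on GFP-positive and 17660.4 to 22668 on GFP-negative arrays. The part of these cells in the result was not tested, and in sorted bulk samples fewer cells of a type and less RNA per cell cannot be told apart.

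The remaining ER isomerases were not called. The gene for cyclophilin B, ppib, which belongs to the complex that modifies collagen prolines, had signals of 972, 21205, 19636 and 15047 in GFP-positive cells, against 10721, 14952, 17879 and 11865 in GFP-negative cells. In replicates 2 to 4 it was somewhat higher in GFP-positive cells, and the GFP-positive array of replicate 1 was far below its partner. Its difference was -0.62 (adjusted p = 0.51, SE 0.67), and 0.33 without replicate 1 (adjusted p = 0.17). The FKBP13 gene fkbp2 had signals of 4077, 9717, 9042 and 12579 in GFP-positive cells, against 4102, 4367, 4336 and 4246 in GFP-negative cells, with a difference of 0.94 (adjusted p = 0.069, SE 0.33). Leaving out replicate 1 gave 1.26 (adjusted p = 0.012), and cyclic loess also led to a call. None of the other alternatives did, and their adjusted p reached 0.24. The calls of fkbp9 and fkbp10b were lost without replicate 4, and that of fkbp10b also without replicate 2.

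Genes around the ER chaperones were read from 3 lists, made with earlier results of these data known, so their counts are no independent support. In the list of the unfolded protein response 5 of 11 tested genes rose and 0 fell, with a median of 0.89. Signals of herpud1, a membrane protein of ER-associated degradation that the response induces, were 13397, 11381, 13084 and 17809.5 in GFP-positive cells, against 2235, 1755, 1287 and 1728 in GFP-negative cells. They did not overlap and differed by 3.00 (adjusted p = 0.0013, SE 0.28). Also risen were creb3l3l, of the family of ER-anchored CREB3-like transcription factors (2.20, adjusted p = 0.0049, SE 0.32), the asparagine synthetase gene asns (1.86, adjusted p = 0.0082, SE 0.33), the glutathione-degrading chac1 (1.25, adjusted p = 0.026, SE 0.32) and eif2ak3, the gene of the ER stress kinase Perk (0.89, adjusted p = 0.039, SE 0.26). Unlike creb3l3l, the transcription factor genes xbp1, atf4a and atf4b of this list did not pass. Differences were 1.27 (adjusted p = 0.2, SE 0.69) for xbp1, -0.10 (adjusted p = 0.84, SE 0.34) for atf4a and 0.04 (adjusted p = 0.93, SE 0.27) for atf4b. Signals of xbp1 were 1635, 22509.8, 12224 and 19729 in GFP-positive cells, against 4609, 4611, 4731 and 2584 in GFP-negative cells, so it was higher in 3 of 4 pairs and lower in replicate 1. Transcript levels on these arrays do not show the splicing of xbp1.

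In the list of translocation into the ER and degradation from it, 8 of 18 genes rose and 0 fell, with a median of 0.92. The genes os9 and edem1, whose products serve the disposal of misfolded glycoproteins, differed by 1.87 (adjusted p = 0.004, SE 0.25) and 2.09 (adjusted p = 0.0042, SE 0.28). Signals of os9 were 6146, 4278, 4019 and 4135 in GFP-positive cells, against 1665, 1246, 1007 and 1178 in GFP-negative cells. The ubiquitin ligase gene syvn1 (Hrd1) differed by 2.29 (adjusted p = 0.0087, SE 0.41) and the selenoprotein gene selenos by 2.17 (adjusted p = 0.0071, SE 0.36), and the translocon-associated ssr3 by 1.58 (adjusted p = 0.0063, SE 0.25). The AAA ATPase gene vcp, which draws proteins out of the membrane and also works elsewhere in the cell, did not pass at -0.15 (adjusted p = 0.81, SE 0.42). Of 10 tested ER folding genes outside the families 4 rose and 1, serpinh1b, fell, with a median of 0.96. The risen ones were tmx1, a membrane-bound isomerase (2.51, adjusted p = 0.0031, SE 0.31), the oxidase gene ero1b, which recharges disulfide isomerases (1.82, adjusted p = 0.0042, SE 0.25), cnpy3, a co-chaperone of Grp94 for Toll-like receptors (1.84, adjusted p = 0.0055, SE 0.28), and manf, a secreted protein that ER stress induces (1.55, adjusted p = 0.023, SE 0.38). Without replicate 2, 3 or 4 the counts of risen genes were 3 each time for the unfolded protein response, 5 to 6 for translocation and degradation and 3 to 4 for the other folding genes. Without replicate 2, 3 and 4 in turn 6.87%, 9.11% and 6.59% of all probe sets were called higher. Without replicate 1 the counts of risen genes were 6, 13 and 4, beside 15.0% of all probe sets. Myeloid markers were also higher in GFP-positive cells, with a summed signal of 230138 to 451678 on GFP-positive and 21470.5 to 53056 on GFP-negative arrays. Their medians in pairs 1 to 4 were 3.18, 4.97, 4.57 and 5.47. Those of the unfolded protein response were 0.09, 0.62, 1.04 and 1.76, and those of translocation and degradation 1.02, 1.17, 0.81 and 1.39. The other folding genes had 0.55, 1.17, 0.73 and 1.33. The part of the myeloid markers was not tested. In the marker list of hatching gland and secretory cells 2 of 5 tested genes, which include xbp1, rose: the tetraspanin gene cd63 (2.63, adjusted p = 0.0021, SE 0.29) and the pancreatic carboxypeptidase gene cpa5, at least 16.6-fold (adjusted p = 0.011), while the trypsin gene prss1 differed by 0.07 (adjusted p = 0.89, SE 0.33).

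**Figure D4:**
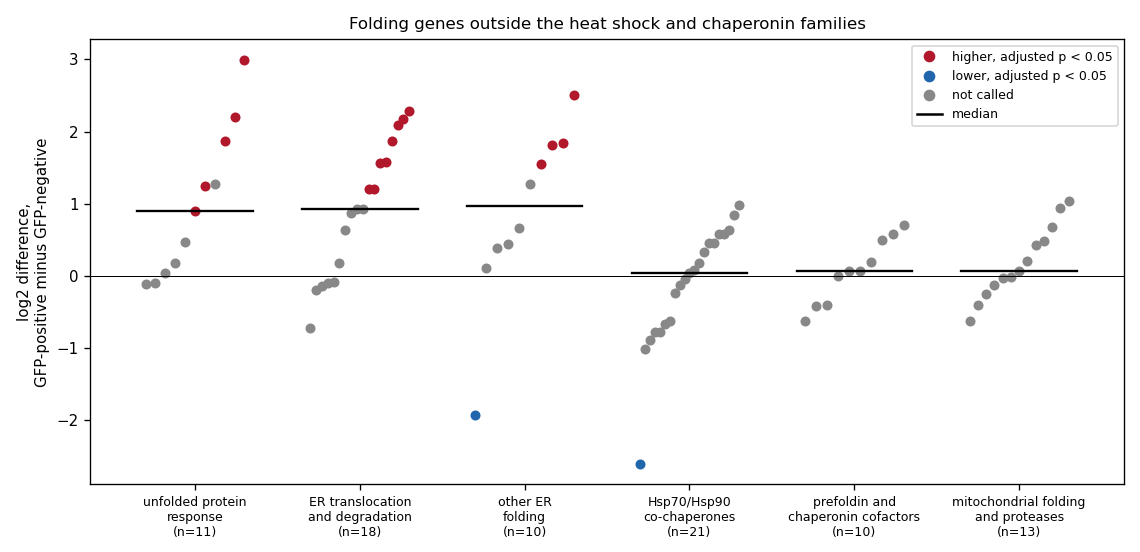
Log2 difference, GFP-positive minus GFP-negative (vertical axis), of each tested gene in 6 lists of other folding genes, with a bar at the median. The lists lie outside the families but for hspbp1 of the co-chaperone list, which matches them by name. The medians of the 3 ER lists at the left are 0.89, 0.92 and 0.96, and those of the co-chaperone, prefoldin and mitochondrial lists at the right are 0.04, 0.06 and 0.06.

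The 8 subunit genes of the cytosolic chaperonin form 1 ring and were all measured, on every array above the 40th percentile. None of the 8 passed the test in limma, with 0 at an unadjusted p under 0.05, and all 8 fitted differences were below 0, from -0.97 for cct2 to -0.08 for cct3. After median centring that of cct3 was 0.11. A dimmer cct2 probe set pointed the other way, at 0.68 (adjusted p = 0.23). Signals of tcp1, the subunit that gave the complex its name, were 1537, 16884, 12824 and 17264 in GFP-positive cells, against 14758, 20112, 22792 and 11062 in GFP-negative cells. In GFP-positive cells replicate 1 was low and the other 3 lay within the GFP-negative range. Signals of cct4 were 1762, 19306, 15917 and 18664 in GFP-positive cells, against 6799, 21539, 30136 and 15874 in GFP-negative cells. Those of cct8 were 1511, 8206, 7959 and 7348 in GFP-positive cells, against 8144, 9022, 11565 and 7425 in GFP-negative cells. The same array was the lowest of the GFP-positive arrays for 8 of 8 subunits, against 33.7% of all tested probe sets. The subunit cct2 had signals of 887, 8001, 11099 and 8582 in GFP-positive cells, against 5738, 13519.9, 16611 and 7673 in GFP-negative cells. Those of cct7 were 2139, 21549, 16654 and 20143 in GFP-positive cells, against 11493, 20351, 21313 and 14891 in GFP-negative cells. Those of cct6a were 3181, 18028, 17913 and 16134 in GFP-positive cells, against 13922, 26332, 27896 and 17061 in GFP-negative cells. Again replicate 1 of the GFP-positive cells was far below the rest, and the ranges of the other arrays overlapped. The smallest drop of that array was in cct3, with signals of 10896, 18814, 20470.0 and 19070.3 in GFP-positive cells, against 16014, 20529, 21131 and 14348 in GFP-negative cells. Those of cct5 were 7667, 20634, 22626 and 20956 in GFP-positive cells, against 22869.9, 25076, 30019 and 19329 in GFP-negative cells.

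Without replicate 1 the chaperonin differences ran from -0.42 for cct6a and -0.39 for cct2 to 0.08 for cct3, with adjusted p from 0.12 to 0.85. Over all 4 pairs the 95% intervals were -0.73 to 0.58 for cct3, -1.35 to 0.27 for cct5 and -2.35 to 0.50 for tcp1. They do not show that the levels are alike. The GAPDH 3′ to 5′ ratio was high on both arrays of replicate 1. On the log2 scale the subunit signals of its GFP-negative array differed from the median of the other GFP-negative arrays by a median of -0.64. The GFP-positive array of replicate 1 differed from its group by -2.86. The 3′ to 5′ ratio was also high on the GFP-positive array of replicate 3, at 99.95, though the 3′ to middle ratio, 4.03, was not. The subunit signals of that array lay near those of GFP-positive replicates 2 and 4, with 12824 for tcp1 and 22626 for cct5. The part of RNA length in the subunit signals was not tested. Of 10 tested prefoldin and cofactor genes 0 were called (0 at an unadjusted p under 0.05), with a median of 0.06 and the smallest p values for pdcd5 (-0.62, adjusted p = 0.12, SE 0.27), pdcl3 (0.70, adjusted p = 0.13, SE 0.32), pfdn2 (0.49, adjusted p = 0.19, SE 0.26) and pfdn6 (0.57, adjusted p = 0.26, SE 0.36).

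**Figure D5:**
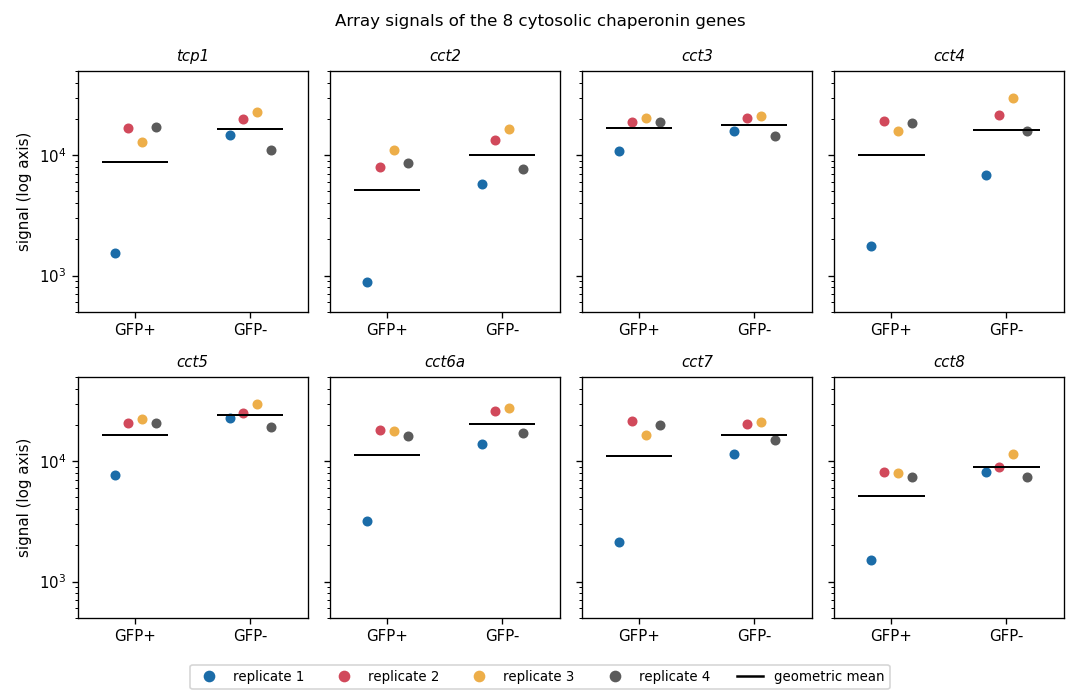
Array signals on a log axis of the 8 chaperonin subunit genes, GFP-positive arrays (GFP+) left of GFP-negative arrays (GFP-), with a coloured point for each replicate and a bar at the geometric mean. In every panel the GFP-positive array of replicate 1 is the lowest of its group, and the GFP-positive arrays of replicates 2 to 4 lie among or near the GFP-negative arrays.

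Of the cytosolic Hsp70 and Hsp90 genes 1 of 11 tested fell and 0 rose, with a median of -0.24. The constitutive Hsp70 gene hspa8 had signals of 11803, 45059, 53384 and 53767 in GFP-positive cells, against 25123, 43775, 43456 and 39502 in GFP-negative cells. Replicate 1 of the GFP-positive cells was below all other arrays and the other 3 GFP-positive arrays were above every GFP-negative array, for a difference of -0.08 (adjusted p = 0.88, SE 0.33), or 0.26 without replicate 1 (adjusted p = 0.21). The heat-inducible hsp70.3 had signals of 1162, 1064, 1775 and 10266 in GFP-positive cells, against 14037, 2237, 3182 and 8267 in GFP-negative cells. They spread widely in both fractions, with high values in GFP-positive replicate 4 and in GFP-negative replicates 1 and 4, and the difference of -1.3 (adjusted p = 0.14, SE 0.59) did not pass. A probe set that hsp70.3 shares with other inducible Hsp70 genes, left unnamed here, had a like spread and is no independent reading. Its signals were 363, 684, 949 and 4674 in GFP-positive cells, against 8715, 1430.3, 1597 and 3306 in GFP-negative cells (adjusted p = 0.18). In a list of immediate early and early stress response genes, which handling and sorting can induce, 13 of 27 tested genes rose and 1 fell, and their summed signal was 214586 to 414144 on GFP-positive and 65795 to 116500.0 on GFP-negative arrays. Its part in the levels of Hsp70 genes was not tested.

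The other Hsp70 relatives did not pass the test. The Hsp110 exchange factor genes differed by -0.29 (adjusted p = 0.49, SE 0.30) for hspa4a, -0.75 (adjusted p = 0.14, SE 0.34) for hspa4b and 0.07 (adjusted p = 0.96, SE 0.96) for hspa4l. Signals of hspa4b were lower in GFP-positive cells without overlap, at 2235, 5891, 5121 and 5156 in GFP-positive cells, against 7615, 6548, 8586 and 6413 in GFP-negative cells. Those of hspa4l were 19383, 713, 1034 and 1648 in GFP-positive cells, against 1161, 3801, 1136 and 3883 in GFP-negative cells, with a lone high GFP-positive array in replicate 1, and without that replicate the difference was -1.26 (adjusted p = 0.079). The gene hspa14, of an Hsp70 found on ribosomes, differed by -0.24 (adjusted p = 0.55, SE 0.28), the atypical hspa12a by -0.15 (adjusted p = 0.77, SE 0.35) and hspa8b by -0.85 (adjusted p = 0.35, SE 0.65).

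The 3 cytosolic Hsp90 genes had differences of both signs, and 1 passed the test. Signals of hsp90ab1, the constitutive form, were 72223, 62602, 92138 and 76538 in GFP-positive cells, against 24699.9, 47798, 52116 and 59176 in GFP-negative cells. They were higher in GFP-positive cells without overlap, but the difference of 0.78 (adjusted p = 0.09, SE 0.30) did not pass. It passed after median centring and without replicate 1, but in none of the other alternatives. After quantile normalization the difference was 0.32 (adjusted p = 0.35) and after cyclic loess 0.49 (adjusted p = 0.29). The inducible hsp90aa1.2 did not pass (0.53, adjusted p = 0.39, SE 0.44), and its other probe set differed by -0.14 (adjusted p = 0.82). Without replicate 1 the first value was -0.01 (adjusted p = 0.98). The gene that fell was hsp90aa1.1, whose product folds myosin together with Unc45b in zebrafish skeletal muscle. Its signals were 1389, 775, 1850.2 and 1416 in GFP-positive cells, against 5960.3, 2481, 5583 and 2308 in GFP-negative cells. No array of the GFP-positive cells reached the GFP-negative range, and the difference was -1.52 (adjusted p = 0.013, SE 0.31), which did not pass without replicate 2. A probe set shared by hsp90aa1.1 and hsp90aa1.2 did not show this fall. It differed by 0.31 (adjusted p = 0.79, SE 0.80), with 2 pairs higher and 2 lower. In the co-chaperone list unc45b was called, 1 of 21 tested genes, at least 4.52-fold lower (adjusted p = 0.0044), with signals of 146, 149, 469 and 109 in GFP-positive cells, against 941, 1222, 1371 and 1004 in GFP-negative cells. The next smallest p values of that list were those of bag4 (-0.79, adjusted p = 0.1, SE 0.32), sugt1 (0.98, adjusted p = 0.12, SE 0.42) and ahsa1a (-0.67, adjusted p = 0.13, SE 0.30). The heat shock factor genes hsf1 and hsf2 differed by 0.84 (adjusted p = 0.34, SE 0.62) and -0.63 (adjusted p = 0.13, SE 0.28).

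Small heat shock proteins hold unfolded chains without ATP, and 2 of their 3 genes were tested. Signals of hspb8, which works with Bag3 in clearing damaged muscle proteins, were 264, 173, 425 and 144 in GFP-positive cells, against 1700.3, 732, 1349 and 1327 in GFP-negative cells. They did not overlap, and with 2 of 4 GFP-positive arrays above the 40th percentile the gene was at least 5.005-fold lower in GFP-positive cells (adjusted p = 0.0048), a call that held in all alternatives. The Hsp27 gene hspb1 had signals of 1656, 205, 2126 and 375 in GFP-positive cells, against 3450.2, 1358, 2049.5 and 2376 in GFP-negative cells. Replicates 2 and 4 of the GFP-positive cells were low and replicates 1 and 3 were not, and the difference of -1.60 (adjusted p = 0.051, SE 0.51) missed the threshold narrowly. It passed after median centring, with a pseudocount of 100 and without replicate 3, but in none of the other alternatives, where the adjusted p reached 0.18. Like hspb8, hsp90aa1.1 and unc45b, muscle markers were lower in GFP-positive cells. Their summed signal was 4774 to 16986 on GFP-positive and 81875 to 216759 on GFP-negative arrays, with 18 of 19 genes fallen, of which 4 passed the filter only through the GFP-negative arrays. The direction was not particular to muscle. Neural markers fell in 20 of 20 tested genes, 3 of them through that filter, and endothelial markers in 3 of 4. Of 8 notochord, cartilage and matrix markers 6 fell and 1 rose. The part of these markers was not tested.

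J proteins of the cytosol and nucleus fell in 3 of 12 cases and rose in 0 (3 at an unadjusted p under 0.05), with a median of -0.03. Over all tested probe sets 18.4% were called lower. Signals of dnaja2b, an Hsp70 partner of the DnaJ class with a zinc finger, were 2848, 3758, 6869.9 and 3765 in GFP-positive cells, against 11479, 9328, 12609.5 and 13286 in GFP-negative cells. They did not overlap, and the difference was -1.50 (adjusted p = 0.011, SE 0.30). Another dnaja2b probe set also fell, by 1.71 on the log2 scale (adjusted p = 0.023), whereas its paralogue dnaja2a differed by -0.02 (adjusted p = 0.97, SE 0.26), with an interval of -0.62 to 0.59. No test between the paralogues was made. Signals of dnajc5ga, of the cysteine string protein family of vesicle chaperones, were 658, 1113, 1511 and 1082 in GFP-positive cells, against 3510.2, 2786, 2691 and 3014 in GFP-negative cells, a difference of -1.51 (adjusted p = 0.015, SE 0.33). The calls of dnaja2b and dnajc5ga were lost without replicate 2 or 4. The fall of dnajb6b, a suppressor of protein aggregates, is the least secure, at -1.09 (adjusted p = 0.0498, SE 0.34) and lost in 9 of 13 alternatives. Its signals were 1087, 467, 895 and 587 in GFP-positive cells, against 1152, 1222, 3044 and 1282 in GFP-negative cells, with a high GFP-negative array in replicate 3. Of the bright uncalled members, dnajb1b, a partner of Hsp70, differed by -0.05 (adjusted p = 0.89, SE 0.25) and the Hsp90 adaptor gene dnajc7 by -0.14 (adjusted p = 0.74, SE 0.29).

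In the cytosolic and nuclear prolyl isomerases 1 of 12 rose and 1 fell (5 at an unadjusted p under 0.05), with a median of -0.61. The opposed pair were the Hsp90 partners of steroid receptors. The FKBP52 gene fkbp4 fell. Its signals were 1799, 3048, 2732 and 3399.9 in GFP-positive cells, against 6938, 9229.6, 5249 and 6198 in GFP-negative cells, without overlap, and the difference was -1.34 (adjusted p = 0.017, SE 0.30). The FKBP51 gene fkbp5, which glucocorticoids induce, rose. Its signals were 525, 959.8, 672 and 627 in GFP-positive cells, against 237, 736, 214 and 163 in GFP-negative cells, and they overlapped through GFP-negative replicate 2 only, with a difference of 1.28 (adjusted p = 0.034, SE 0.36). Neither call is firm: fkbp4 lost it after median centring and without replicate 2 or 4, and fkbp5 with no replicate block, with the stricter filter and without replicate 2, 3 or 4. The nuclear FKBP25 gene fkbp3 had signals of 78.6, 1539.7, 1427 and 936 in GFP-positive cells, against 3099, 2093, 2724 and 2548 in GFP-negative cells, which did not overlap, and a difference of -2.03 (adjusted p = 0.086, SE 0.77). Without replicate 1 it was -0.94 (adjusted p = 0.046). The cyclophilin 40 gene ppid, another Hsp90 partner, had a difference of -0.49 (adjusted p = 0.25, SE 0.30), and of -0.76 without replicate 1 (adjusted p = 0.026). The bright cyclophilin A gene ppiaa differed by -0.11 (adjusted p = 0.79, SE 0.29) and the FKBP12 gene fkbp1aa by 0.47 (adjusted p = 0.27, SE 0.30). Other probe sets of these genes pointed the other way, at 1.13 for ppiaa (adjusted p = 0.054) and -1.39 for fkbp1aa (adjusted p = 0.16).

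Mitochondrial chaperones import and fold proteins behind the mitochondrial membranes, and 0 of 9 tested genes were called. The chaperonin gene hspd1 (Hsp60) had signals of 3174, 13438, 10765 and 12691 in GFP-positive cells, against 2857, 10307, 11114 and 9042 in GFP-negative cells. Replicate 1 was low in both fractions, the other arrays overlapped, and the difference was 0.24 (adjusted p = 0.5, SE 0.26) with an interval of -0.37 to 0.86. Its lid hspe1 (Hsp10) had signals of 43646, 17473, 24988 and 20769.7 in GFP-positive cells, against 10897, 17434, 22911 and 19712 in GFP-negative cells. The fractions were near equal in replicates 2 to 4, and the difference of 0.55 (adjusted p = 0.33, SE 0.40) was 0.07 without replicate 1. The import motor gene hspa9 (mortalin) had signals of 16252, 10465, 11115 and 13131 in GFP-positive cells, against 6819, 14283, 12150.1 and 10835 in GFP-negative cells, and a difference of 0.24 (adjusted p = 0.62, SE 0.35), or -0.10 without replicate 1. The J protein genes differed by -0.21 (adjusted p = 0.59, SE 0.27) for dnaja3a, 0.79 (adjusted p = 0.17, SE 0.39) for dnaja3b, 0.32 (adjusted p = 0.37, SE 0.25) for dnajc11a, 0.20 (adjusted p = 0.66, SE 0.31) for dnajc19 and -0.62 (adjusted p = 0.5, SE 0.67) for dnajc30b, the last at 0.22 without replicate 2. The cyclophilin D gene ppifa differed by 0.46 (adjusted p = 0.28, SE 0.30). In the list of other mitochondrial folding genes and proteases 0 of 13 were called (1 at an unadjusted p under 0.05), with a median of 0.06 and the smallest p values for lonp1 (1.03, adjusted p = 0.06, SE 0.34), pam16 (0.93, adjusted p = 0.12, SE 0.40), phb2b (-0.64, adjusted p = 0.2, SE 0.35) and clpp (0.48, adjusted p = 0.25, SE 0.29).

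Of the 90 genes 9 were too dim to test, namely dnajc4, dnajc12, dnajc24, dnajc5gb, fkbpl, hspa1b, hspb6, ppih and ppip5k1a. Of these dnajc5gb, the paralogue of dnajc5ga, had signals of 419, 355, 244 and 444 in GFP-positive cells, against 15.3, 65.2, 19.3 and 26.2 in GFP-negative cells. It was above the 40th percentile on 3 of 4 GFP-positive and 0 of 4 GFP-negative arrays, which gives at least 1.69-fold higher in GFP-positive cells with no test. The genes that match by name only were not called, at 0.33 (adjusted p = 0.66, SE 0.52) for hspbp1 and 0.21 (adjusted p = 0.64, SE 0.32) for tcp11l2, and without replicate 1 these were -0.37 and -0.03. In all 13 of the 90 genes had more than 1 probe set.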

How the data were processed

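The deposited values are intensities on a linear scale, 1 for each probe set on each array, made by the authors with MAS5 per the submitters' processing notes (version not given in the sources used here). Per the labels' protocols the RNA passed 2 rounds of linear amplification, a step that can shorten transcripts. All 8 arrays share 1 trimmed mean, so the intensity values were used as deposited. Of 15617 probe sets 115 controls were left out. A probe set was tested if above the array's 40th percentile on at least 4 of 8 arrays. Groups and replicate numbers came from the sample titles. Names came from GEO's platform annotation, in which 10795 probe sets have 1 symbol and 135 several; all 90 members matched RefSeq by gene identifier.

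Signals were taken as log2 and fitted over 9801 probe sets with limma 3.58.1 in R 4.3.3 (trend on mean signal, two-sided, adjusted by Benjamini and Hochberg over all of them). The replicate was a block, since the series' design text speaks of pairing the GFP-positive and GFP-negative samples. Correlations of deviations within pairs were 0.40, 0.26, 0.18 and -0.12, so pair 4 does not show it. The fit was tested on simulated data. The planted changes were larger than most called differences of members, and no outlying array was simulated. It therefore does not show how the fit does on smaller changes or with such an array. Where at most 2 of 4 arrays of the lower fraction exceeded the 40th percentile, a fold is a lower bound from the means of log2 signals, with dimmer arrays set to that percentile. Alternatives were other scalings, filters, variance model, pseudocount, probe set choice, no block and leaving out each pair. The members, the lists and the choice of named genes were made with earlier results of these data known. The rule names all chaperonin, Hsp70, Hsp90, lectin, disulfide isomerase and mitochondrial members, up to 8 called members of other classes with 1 to 3 bright uncalled ones, and the 4 listed genes with the smallest p. The uncalled fkbp3 and ppid were named outside this rule, and both passed the test only without replicate 1. The genes of transcription factors, vcp, syvn1 and eif2ak3 and those beside markers were added after their values were seen. Other marker lists gave, of tested genes, 8 of 12 erythroid, 3 of 4 endothelial and 3 of 10 epidermal lower, and of 3 thrombocyte genes 1 higher and 1 lower, where krt17 and thbs1b passed the filter only through the GFP-negative arrays.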

Additional observations from a re-analysis of the deposited data

Results flagged for a closer look

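In each fraction of 4 arrays, the highest and lowest signal of each tested gene was set against the others (gap to the nearest array over the range of the 4, on log2 signals). Of 162 such groups 31 held an array far from the other 3, where chance gives about 1 in 20 for independent groups. The groups share the same arrays, so they are not independent, and the share over all tested probe sets was not counted. Over all 9801 tested probe sets the GFP-positive array of replicate 1 was the lowest of its fraction for 33.7% and the highest for 42.6%. Its place among the 31 is therefore not particular to these genes. Of these 31, 22 were the GFP-positive array of replicate 1 and 5 the GFP-negative array of replicate 1, the pair in which the GAPDH 3′ to 5′ ratio was high on both arrays. That ratio was also high on the GFP-positive array of replicate 3, which was not among the 31. The 3′ to middle ratio was not high on that array, at 4.03, against 11.45 and 7.45 on the GFP-positive and GFP-negative arrays of replicate 1. The part of RNA length was not tested. The GFP-positive array of replicate 1 was low for all 8 chaperonin subunits, with signals of 887 for cct2, 10896 for cct3, 1762 for cct4, 7667 for cct5, 3181 for cct6a, 2139 for cct7, 1511 for cct8 and 1537 for tcp1. The same array was low for 5 ER genes, with signals of 270.2 for calr3b, 4179 for canx, 1146 for dnajc1, 173 for pdia3 and 972 for ppib, while the other GFP-positive arrays gave 2520 to 3583 for calr3b and 44503 to 45933 for canx. Among cytosolic, nuclear and mitochondrial genes it was low at 78.6 for fkbp3, 2235 for hspa4b, 11803 for hspa8, 3174 for hspd1, 13581 for ppiaa, 1071 for ppiab and 694 for ppil2. It was high at 1054 for dnaja3b and 8434 for dnajb6a. The GFP-negative array of replicate 1 was low at 28.4 for calr3b, 2038 for hspa5, 7327 for canx and 2857 for hspd1 and high at 2925 for dnajc1. The others were dnajc19 on the GFP-negative array of replicate 2 (625, low), hspa8b on the GFP-negative array of replicate 4 (1084, high), dnajb6b on the GFP-negative array of replicate 3 (3044, high) and dnajc30b on the GFP-positive array of replicate 2 (27.7, low).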

How the results depend on the processing

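Over 13 alternatives the direction of no called gene turned, and 7 of 21 calls held in every alternative that tested them, those of pdia2, dnajc3a, dnajc3b, pdia4, hyou1, calr3a and hspb8. With 1 pair left out, 7 to 18 members were called higher and 2 to 11 lower. The low ends, 7 and 2, came without replicate 2 and without replicate 4, where 6.87% and 7.40%, and 6.59% and 6.72%, of all probe sets were called, on fewer samples. With no replicate block 8 were higher and 8 lower, beside 1191 and 1688 of all 9801 tested probe sets. The calls of hspa5, hsp90b1, calr3b, fkbp5 and dnajb6b were then lost and the others kept. Under the remaining settings 10 to 14 were higher and 8 to 10 lower. Over all probe sets the stricter filter gave 989 higher and 1354 lower of 6634. No filter gave 1380 and 1826 of 15502, and the others 1251 to 1496 higher and 1440 to 1957 lower of 9801. Leaving out a pair moved the medians to 0.73 to 1.26 for ER, -1.02 to -0.21 for chaperonin, 0.07 to 0.36 for mitochondrial and -0.46 to -0.25 for other cytosolic and nuclear genes. The last median, -0.29, was -0.47 after quantile normalization, -0.10 after median centring, -0.19 with no filter and -0.49 with the dimmest tested probe set of a gene, and the cause was not tested. Median centring shifts the median of all tested probe sets from -0.18 to 0.01 and turns the calls over all probe sets from 1273 higher and 1805 lower to 1496 and 1440. The sign of an uncalled member changed 46 times, 22 of them under a scaling or probe set choice; values are given above for genes whose probe sets disagree, and dnajb6a (0.77 and -0.53), cct2 (-0.97 and 0.68), hspa9 (0.24 and -0.09) and hspbp1 (0.33 and -0.20) also did. Leaving out pairs in the lists of other folding genes was added after seeing the data. The number of arrays, 4 a fraction, limits the precision, and dim probe sets near the filter give bounds only.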
